A study of Mus musculus with 8 samples.

Results

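The heat shock chaperones described here are 10 genes, *Hspa1a*, *Hspa1b*, *Dnajb1*, *Dnaja1*, *Hspa8*, *Hspa5*, *Hsph1*, *Hsp90aa1*, *Hspb1* and *Bag3*, out of 49315 genes counted in brain endothelial cells (ECs). They were taken by symbol from a fixed list, all 10 were found, and all 10 were among the 16887 genes with enough counts to be tested. The list was drawn up with the values of these genes in mutant and wild-type ECs already known. Their differences between the groups are therefore a description, given with a standard error and without a p-value.

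ECs were captured from digested whole brains of 9-day-old mouse pups with magnetic beads that carry an antibody against the endothelial surface protein CD31, and poly(A) RNA was sequenced. Mutant pups (labelled *Map2k1* K57N, *R26*GT-Map2k1-GFP/+;*Tg-Cdh5CreER*+/-) carried a constitutively active MAP2K1 cDNA, with GFP behind it, at the *Rosa* locus under a CAG promoter and a stop cassette, and an endothelial *Cdh5* promoter drove the Cre recombinase that removes this cassette. Control pups were labelled wild type, came from the same litters on a C57BL/6J background and received the same tamoxifen injection at day 1. Each group had 4 libraries. Those of mutant pups hold recombined and non-recombined ECs together, since the paper found the recombined allele in only a minority of their ECs. No sort on GFP is described, and in which of these ECs a gene differed was not tested.

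Chaperones keep other proteins from aggregating and help them to fold. HSP70 proteins bind and release unfolded stretches in an ATP cycle that J-domain proteins start and that HSP110 and BAG proteins reset, HSP90 finishes the folding of kinases and receptors, and small heat shock proteins hold unfolded proteins until HSP70 takes them over. Heat, oxidants and other stresses free the transcription factor HSF1 to bind repeats of the letters GAA and TTC upstream of the inducible genes, above all *Hspa1a* and *Hspa1b*, whereas *Hspa8* and *Hsp90ab1* are made in nearly all unstressed cells. Kinases of the ERK pathway are among the clients of HSP90. Enzymatic dissociation of tissue is known to induce heat shock genes together with immediate early genes such as *Fos*.

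The DNA upstream of the transcription start is shown for 5 of the genes, to let a reader compare them. These are the genes with a RefSeq window of 250 bases before a start that lies wholly outside the counted gene. The sequences are from RefSeq on GRCm38.p6, run 5′ to 3′ on the strand of the gene and end at the base before the start. Capitals mark an inverted pair of heat shock units, GAANNTTC or TTCNNGAA, each of which reads the same on both strands.
Hspa1a, chr17:34972157-34972406, minus strand: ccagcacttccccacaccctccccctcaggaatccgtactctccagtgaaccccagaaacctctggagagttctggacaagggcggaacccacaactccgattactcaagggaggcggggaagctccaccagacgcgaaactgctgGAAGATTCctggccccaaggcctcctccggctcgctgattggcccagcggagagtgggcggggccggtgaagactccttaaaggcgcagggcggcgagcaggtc
Hspa1b, chr17:34959239-34959488, minus strand: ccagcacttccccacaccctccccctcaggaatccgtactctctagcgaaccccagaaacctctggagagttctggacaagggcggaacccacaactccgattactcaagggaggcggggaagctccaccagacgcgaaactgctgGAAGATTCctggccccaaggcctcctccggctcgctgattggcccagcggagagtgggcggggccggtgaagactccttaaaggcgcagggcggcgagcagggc
Hspb1, chr5:135887669-135887918, plus strand: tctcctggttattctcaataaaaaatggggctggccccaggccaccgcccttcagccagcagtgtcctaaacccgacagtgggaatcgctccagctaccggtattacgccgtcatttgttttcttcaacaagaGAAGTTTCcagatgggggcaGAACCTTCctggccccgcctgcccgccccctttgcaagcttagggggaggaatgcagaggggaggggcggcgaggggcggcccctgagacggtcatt
Dnajb1, chr8:83607925-83608174, plus strand: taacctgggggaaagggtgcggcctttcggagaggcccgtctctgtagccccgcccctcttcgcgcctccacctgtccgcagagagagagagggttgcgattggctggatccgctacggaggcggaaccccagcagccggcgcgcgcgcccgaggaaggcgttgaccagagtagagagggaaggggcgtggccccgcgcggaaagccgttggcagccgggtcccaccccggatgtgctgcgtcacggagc
Bag3, chr7:128523333-128523582, plus strand: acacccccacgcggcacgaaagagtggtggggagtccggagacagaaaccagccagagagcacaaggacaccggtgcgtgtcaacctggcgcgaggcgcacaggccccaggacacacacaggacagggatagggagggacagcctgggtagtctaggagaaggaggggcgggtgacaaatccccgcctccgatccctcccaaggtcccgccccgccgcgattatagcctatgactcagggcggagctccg

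The *Hspa1a* and *Hspa1b* windows were 98.8% identical over 250 bases. They differed at 3 positions, C44T, T47C and T249G, written as the *Hspa1a* base, the position from 1 at the 5′ end of the window and the *Hspa1b* base. Each held 1 pair of units, which begins at position -104 from the start. *Hspb1* held 2 pairs, at positions -117 and -97, and the windows of *Dnajb1* and *Bag3* held none. RefSeq windows were found for 8 of the 10 genes, and 5 of these 8 had a pair in at least 1 window (*Hspa1a*, *Hspa1b*, *Hspb1*, *Hsph1* and *Dnaja1*). Among all genes tested that had a window, 1456 of 11778 had a pair. Counted by window, 6 of 12 held a pair, against 10.4% of 15032 windows of all genes tested. These 6 are not separate cases, since 2 overlapping *Hsph1* windows hold the same pair and the *Hspa1a* and *Hspa1b* windows are near copies. The longer arrays GAANNTTCNNGAA and TTCNNGAANNTTC, which contain such pairs, were in none of the 12 windows and in 0.373% of the windows of genes tested. A match is only a match of letters in this window.

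*Map2k1*, the targeted gene, had 12692 to 18734 normalized counts in mutant and 1506 to 1762 in wild-type libraries, so that all 8 libraries matched their labels. Normalized counts are counts scaled by edgeR's TMM method to the mean library size. The libraries held 24833373 to 34196955 counts on genes. In the comparison of mutant with wild-type ECs, 7504 of 16887 genes (44.4%) were called at an adjusted p of 0.05 by the quasi-likelihood test of edgeR, adjusted after Benjamini and Hochberg, 22.9% lower and 21.5% higher in mutant ECs. With an absolute log2 fold change over 1 as well, the study's limits, 14% were called, 8.05% lower and 5.9% higher.

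Of the 10 chaperone genes, 7 were lower in mutant ECs by this test, 1 (*Bag3*) was higher and 2 (*Hspa8* and *Hspa5*) were not called. The *Bag3* call was lost with upper-quartile scaling and without wild-type library 1 or 2. With the fold limit, 4 were lower, *Hspa1a*, *Hspa1b*, *Hspb1* and *Hsph1*, and none was higher. The median log2 fold change was -0.54 over the 10 genes and -0.03 over all genes tested. For 7 of the 10 genes every mutant library was below every wild-type library, and for none above. Over all genes tested the groups were apart for 42.5%, 21.9% lower and 20.6% higher in mutant ECs. DESeq2, which called 34.4% of the genes it tested, gave the same count of 7 lower and 1 higher. Because the genes were chosen on this comparison, nothing is read from these counts. In bulk RNA, fewer cells that express a gene and less RNA per cell cannot be told apart.

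**Figure D1:**
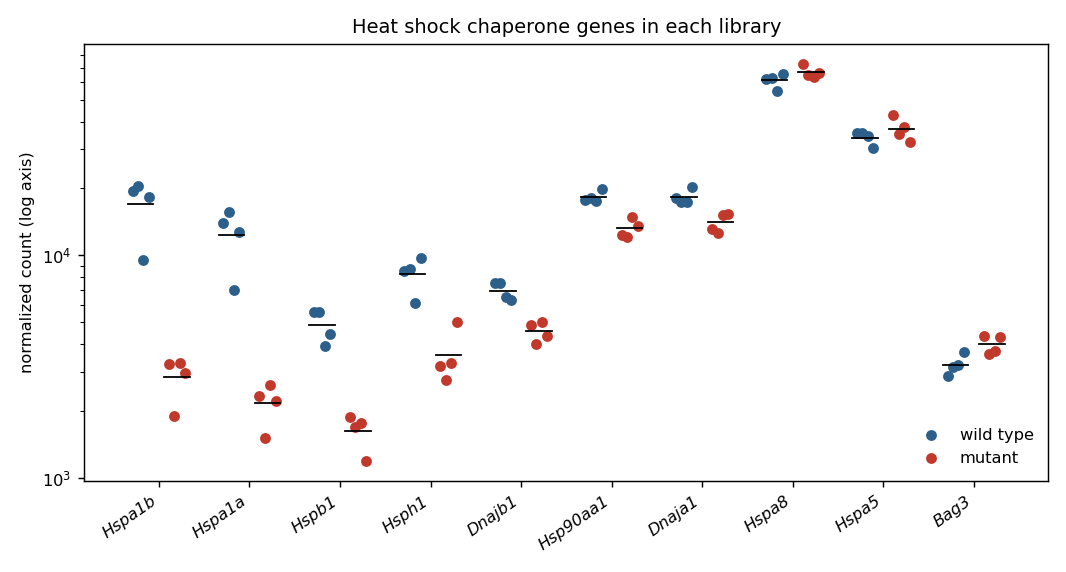
Normalized counts (log axis) of the 10 chaperone genes in each of 4 wild-type (blue) and 4 mutant (red) libraries, ordered by fold change, with a black line at the group mean. The groups lie apart for the 7 genes from Hspa1b to Dnaja1, and overlap for Hspa8, Hspa5 and Bag3.

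*Hspa1a* and *Hspa1b* encode the stress-inducible cytosolic HSP70 and had the largest differences of the 10. *Hspa1a* (ENSMUSG00000091971, chr17:34969190-34972156 of GRCm38, minus strand) had 2330, 1516, 2601 and 2209 normalized counts in mutant libraries 1 to 4 and 14052, 15652, 6963 and 12716 in wild-type libraries 1 to 4. Every mutant library was below every wild-type library, and wild-type library 3 was the lowest of its group. The wild-type mean was 12346 ± 3784 and the mutant mean 2164 ± 462 (SD, n = 4 each), 5.71-fold lower (log2 fold change -2.51, standard error 0.25). On the values known when the genes were chosen, 120 of the 16887 genes tested had a lower log2 fold change than *Hspa1a*. Nothing is read from this rank.

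*Hspa1b* (ENSMUSG00000090877, chr17:34956436-34959238, minus strand) had 3250, 1889, 3280 and 2966 normalized counts in the mutant libraries and 19530, 20413, 9549 and 18384 in the wild-type libraries. The pattern was that of *Hspa1a*, with mutant library 2 and wild-type library 3 lowest in their groups. The difference was 5.96-fold, a log2 fold change of -2.58 (standard error 0.25). The genes are neighbours, and 38.1% of the 150-base windows of *Hspa1a* transcripts also occurred in *Hspa1b* transcripts, so reads could have been split between them or left out in the counting. *Hspa1b* took 55.5% to 58.2% of the reads of the pair in mutant and 56.6% to 59.1% in wild-type libraries. With the counts of both summed as 1 gene, the log2 fold change was -2.55 (standard error 0.25). Together they took 0.0112% to 0.0200% of all counts in mutant libraries and 0.0593% to 0.122% in wild-type libraries.

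*Hspa8* (ENSMUSG00000015656, chr9:40800984-40810087, plus strand) encodes the constitutive cytosolic HSP70. It had 72706, 64636, 63614 and 66472 normalized counts in the mutant libraries and 62070, 63017, 54996 and 65290 in the wild-type libraries. The groups overlapped, since wild-type library 4 was above mutant libraries 2 and 3. The log2 fold change was 0.12 (standard error 0.08). *Hspa5* (ENSMUSG00000026864, chr2:34771970-34777547, plus strand) encodes BiP, the HSP70 of the endoplasmic reticulum (ER). It had 42673, 35333, 37763 and 32419 normalized counts in the mutant and 35340, 35369, 34476 and 30376 in the wild-type libraries, a log2 fold change of 0.13 (standard error 0.10). Here too the groups overlapped, and library 4 was the lowest of each group. For *Hspa8*, 22.8% of transcript windows were shared with pseudogenes, of which *Gm15459*, with the largest part, held at most 28 raw counts in any library. *Gm8355*, with 8.9% of the windows, held 31 to 60 raw counts in mutant and 47 to 70 in wild-type libraries.

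*Hsph1* (ENSMUSG00000029657, chr5:149614287-149636376, minus strand) encodes HSP110, which exchanges the nucleotide on HSP70 and is itself heat inducible. Its normalized counts were 3187, 2744, 3291 and 4990 in the mutant and 8535, 8726, 6076 and 9766 in the wild-type libraries. Mutant library 4 was the highest of its group and wild-type library 3 the lowest, and the groups stayed apart. The mutant mean was 3553 ± 987 (SD, n = 4) against 8276 ± 1563 (SD, n = 4), 2.33-fold lower (log2 fold change -1.22, standard error 0.19).

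*Hsp90aa1* (ENSMUSG00000021270, chr12:110690605-110702728, minus strand) encodes the more inducible of the cytosolic HSP90 proteins. It had 12402, 12112, 14888 and 13522 normalized counts in the mutant and 17822, 18144, 17597 and 19821 in the wild-type libraries, 1.39-fold lower in the mutant (log2 fold change -0.47, standard error 0.08). The groups did not overlap, and the gap between them was 17597 against 14888. Pseudogenes shared 28.5% of its transcript windows, and *Gm12346*, with the largest part, held 65 to 113 raw counts in mutant and 114 to 127 in wild-type libraries.

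The J-domain proteins bring unfolded proteins to HSP70 and set off its ATPase. *Dnajb1* (ENSMUSG00000005483, chr8:83608193-83612653, plus strand), encoding the heat-inducible HSP40, had 4837, 3987, 5030 and 4352 normalized counts in the mutant and 7480, 7491, 6515 and 6300 in the wild-type libraries. It was 1.53-fold lower in mutant ECs, with the groups apart (log2 fold change -0.61, standard error 0.09). *Dnaja1* (ENSMUSG00000028410, chr4:40722150-40737149, plus strand), a more constitutive J-domain partner of HSP70, had 13196, 12635, 15159 and 15310 normalized counts in the mutant and 18040, 17325, 17426 and 20246 in the wild-type libraries. It was 1.30-fold lower (log2 fold change -0.38, standard error 0.09), with the groups apart. *Smu1* overlaps *Dnaja1* on the opposite strand, and whether counting used the strand is not given in the sources used here, so reads of the overlap are uncertain. Other genes shared 7.16% of the *Dnaja1* transcript windows. *Gm15542*, with the largest part, held 56 to 97 raw counts in mutant and 84 to 98 in wild-type libraries.

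*Hspb1* (ENSMUSG00000004951, chr5:135887919-135889563, plus strand) encodes the small heat shock protein HSP25, the mouse HSP27, which also binds actin. It had 1878, 1686, 1766 and 1187 normalized counts in the mutant and 5573, 5581, 3922 and 4423 in the wild-type libraries. The groups were apart, and mutant library 4 was the lowest of all 8. The means were 1629 ± 305 (SD, n = 4) and 4874 ± 836 (SD, n = 4), 2.99-fold lower in the mutant (log2 fold change -1.58, standard error 0.16). The pseudogene *Hsp25-ps1* shared 39.1% of its transcript windows and held 0 to 8 raw counts in mutant and 6 to 23 in wild-type libraries.

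*Bag3* (ENSMUSG00000030847, chr7:128523616-128546981, plus strand) encodes a co-chaperone that links HSP70 and small heat shock proteins to selective autophagy, and is an HSF1 target. It had 4357, 3604, 3717 and 4293 normalized counts in the mutant and 2859, 3144, 3215 and 3691 in the wild-type libraries. Mutant library 2 was below wild-type library 4, so the groups overlapped. The mean was 1.24-fold higher in mutant ECs (log2 fold change 0.31, standard error 0.10).

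Levels of different genes were compared per length, as RPKM, the counts scaled to library size and to the kilobases of counted exon. The counted length joins the exons of all transcripts of a gene, so genes with long, seldom used exons appear low. How reads of sequence shared between genes were counted is not known. Such sequence made up 40.5% of transcript windows for *Hspa1b*, 39.7% for *Hspa1a*, 39.1% for *Hspb1*, 28.5% for *Hsp90aa1* and 22.8% for *Hspa8*. Levels and ratios between genes may be biased by this. In wild-type ECs the order of mean levels was *Hspa8* (481 RPKM), *Hspa5* (270), *Hspa1b* (204), *Hspb1* (159), *Hsp90aa1* (157), *Hspa1a* (140), *Dnajb1* (73.0), *Dnaja1* (71.3), *Bag3* (42.4) and *Hsph1* (38.4). The ranges of neighbours in this order overlapped from *Hspa5* to *Hspa1a*, between *Dnajb1* and *Dnaja1*, and between *Bag3* and *Hsph1*. In mutant ECs the order was *Hspa8* (524 RPKM), *Hspa5* (295), *Hsp90aa1* (113), *Dnaja1* (54.96), *Hspb1* (53.3), *Bag3* (52.5), *Dnajb1* (47.9), *Hspa1b* (34.21), *Hspa1a* (24.6) and *Hsph1* (16.5). The ranges of neighbours overlapped from *Dnaja1* to *Dnajb1* and from *Hspa1b* to *Hsph1*. *Hspa1b* thus had rank 3 in wild-type and rank 8 in mutant ECs. The constitutive *Hspa8* had 1.17 to 2.22 times the summed RPKM of *Hspa1a* and *Hspa1b* in wild-type libraries and 7.23 to 12.7 times in mutant libraries.

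**Figure D2:**
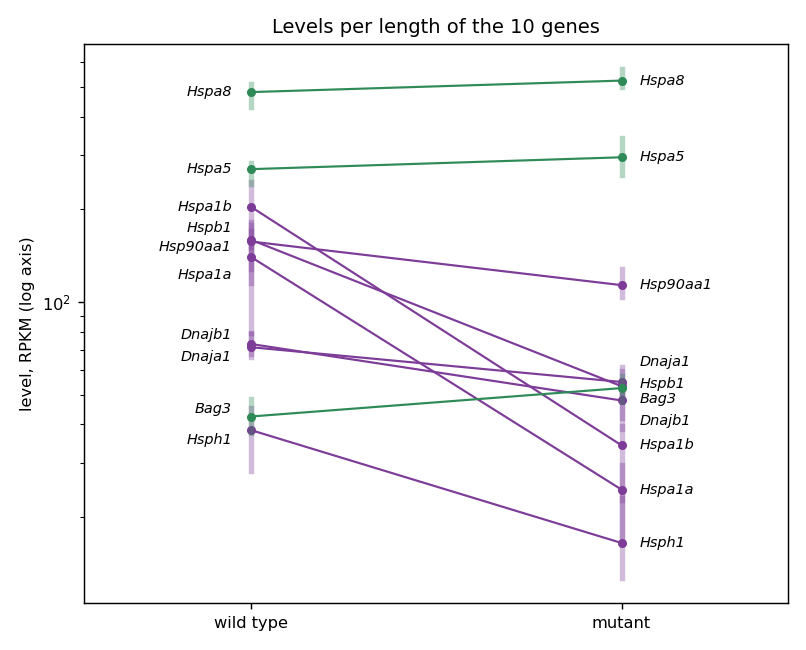
Mean level per length (RPKM, log axis) of the 10 chaperone genes in wild-type and mutant ECs (4 libraries each), joined by a line, with shaded bars from the lowest to the highest library. Purple lines fall and green lines rise. Hspa8 and Hspa5 stay on top, while Hspa1b and Hspa1a drop below Bag3 and Dnajb1.

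The sample labels carry 3 prefixes, each with libraries of both groups, and what the prefixes stand for is not given in the sources used here. For *Hspa1a*, the log2 ratio of mutant to wild type was -2.95 within the prefix of libraries 1 and 2, -1.42 for library 3 and -2.53 for library 4. The same ratios were -2.96, -1.54 and -2.63 for *Hspa1b*. They were -1.65, -1.15 and -1.9 for *Hspb1*, and -1.54, -0.88 and -0.97 for *Hsph1*. The 7 genes lower in mutant ECs were lower within each prefix. This had to be so, since every mutant library was below every wild-type library for them, and it is no separate check. *Hspa8*, *Hspa5* and *Bag3* were higher within each prefix. The prefixes of libraries 3 and 4 hold 1 library per group and give no spread.

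Within the groups the genes did not all vary together. On the log2 CPM scale, wild-type library 3 lay below the mean of its group by 0.76 for *Hspa1a*, 0.77 for *Hspa1b*, 0.42 for *Hsph1* and 0.30 for *Hspb1*. Mutant library 2 lay below its group by 0.48 for *Hspa1a*, 0.56 for *Hspa1b* and 0.33 for *Hsph1*. Mutant library 4 lay 0.53 above its group for *Hsph1* and 0.43 below it for *Hspb1*. Deviations from the group mean over the 8 libraries had a Pearson r of 0.99 between *Hspa1a* and *Hspa1b*, 0.89 between *Dnaja1* and *Hsp90aa1* and -0.58 between *Dnaja1* and *Hspa5*, as a description. Among 11390 other genes that averaged 100 normalized counts or more, those whose deviations followed the mean deviation of the 10 most closely over the 8 libraries were *Txnl4b* (r = 0.97), *Pmm2* (0.96), *Ndufv3* (0.96), *Zdhhc18* (0.96) and *Paox* (0.95), chosen as the top of that ranking.

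**Figure D3:**
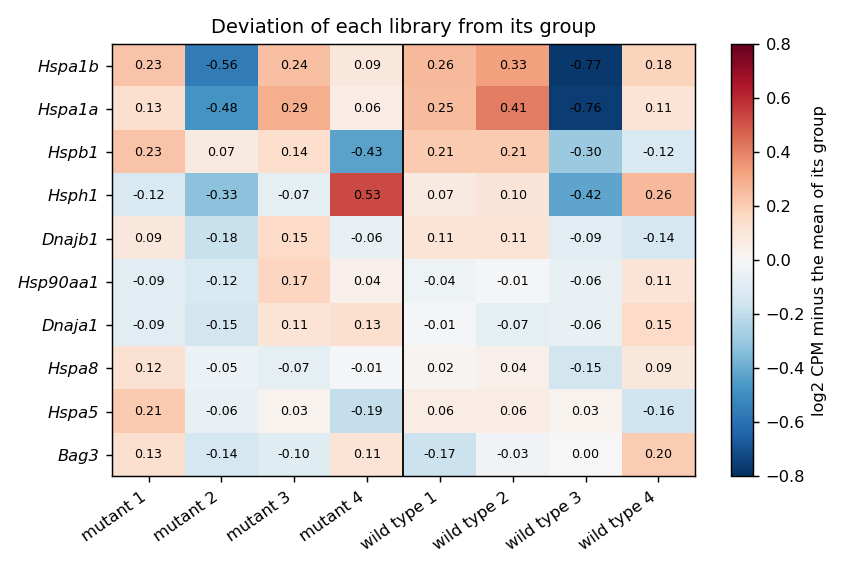
Deviation of each library from the mean of its group (log2 CPM, colour and number) for the 10 chaperone genes, with mutant libraries left and wild-type libraries right of the line. Wild-type library 3 and mutant library 2 are lowest for Hspa1a and Hspa1b, and the genes other than Hspa1a, Hspa1b, Hsph1 and Hspb1 stay within 0.21 of their group mean.

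The wider chaperone system was described with 10 lists of related genes that leave out the 10 genes. These lists too were drawn up with earlier results of these data known. Most genes named from them are those with the largest fold changes of their list. Their counts and adjusted p are therefore a description and not independent evidence. Of 128 related genes tested, 51 were higher and 23 lower in mutant ECs (by the same edgeR test, adjusted over all genes tested), with a median log2 fold change of 0.11. In percent of genes, 21.5% of all genes tested were higher and 22.9% lower. Of 7 other genes known to be heat inducible, 3 were lower, 1 higher and 3 not called, with a median of -0.19. *Ier5*, an HSF1 target that feeds back on HSF1, fell from 8303 ± 596 (SD, n = 4) to 4795 ± 835 (SD, n = 4) normalized counts (log2 fold change -0.79, standard error 0.12, adjusted p = 0.000387, edgeR). *Zfand2a*, a heat-inducible partner of the proteasome, fell from 11666 ± 2326 (SD, n = 4) to 7517 ± 1534 (SD, n = 4) (log2 fold change -0.63, adjusted p = 0.00902, edgeR). *Serpinh1*, the collagen chaperone HSP47, rose (log2 fold change 0.32, adjusted p = 0.0362, edgeR), a call lost without mutant library 1 or 2, without wild-type library 3 or 4 and with upper-quartile scaling.

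*Hsf1*, the main heat shock factor, had 1395 ± 71.7 normalized counts in wild-type and 1238 ± 63.0 in mutant ECs (SD, n = 4 each). The log2 fold change of -0.17 (95% interval -0.33 to -0.02 before adjustment) did not pass the test (adjusted p = 0.066, edgeR), and 4 of 16 alternative settings gave an adjusted p under 0.05, the lowest being 0.0119. *Hsf2* did not pass it in any (log2 fold change -0.19, adjusted p = 0.15, edgeR). Of the 4 genes tested on the list of heat shock factors, which includes a factor-binding protein, only *Hsf4*, best known from the lens, was called. It went from 222 ± 22.6 (SD, n = 4) to 99.7 ± 17.5 (SD, n = 4) normalized counts (log2 fold change -1.15, adjusted p = 0.000274, edgeR). For *Hsf1* and *Hsf2* too, every mutant library was below every wild-type library, as for 21.9% of all genes tested.

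Among the HSP70 and HSP110 relatives 4 of 10 rose and 3 fell, with a median of 0.21. *Hspa4l*, an HSP110 protein like *Hsph1*, rose from 301 ± 51.8 (SD, n = 4) to 1302 ± 553 (SD, n = 4) normalized counts, the opposite of *Hsph1* (log2 fold change 2.12, standard error 0.26, adjusted p = 0.000147, edgeR). *Hspa4*, another cytosolic HSP110 gene, rose 1.33-fold (log2 fold change 0.41, adjusted p = 0.00176, edgeR), and *Hspa9*, the mitochondrial HSP70, rose 1.61-fold (log2 fold change 0.69, adjusted p = 0.000244, edgeR). *Hspa12b*, an HSP70 relative expressed in endothelium, fell 2.07-fold (log2 fold change -1.05, adjusted p = 0.000441, edgeR) and *Hspa2* 1.92-fold (log2 fold change -0.94, adjusted p = 0.00109, edgeR). None of the other HSP90 genes was called lower. *Hsp90ab1* rose 1.203-fold (log2 fold change 0.27, adjusted p = 0.0183, edgeR), a call lost without a filter on low counts, and *Hsp90b1* of the ER had a log2 fold change of 0.18 (95% interval -0.02 to 0.37, adjusted p = 0.136, edgeR). *Hsp90ab1* was 1 of 3 HSP90 relatives tested that was called, and the list's median was 0.18.

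**Figure D4:**
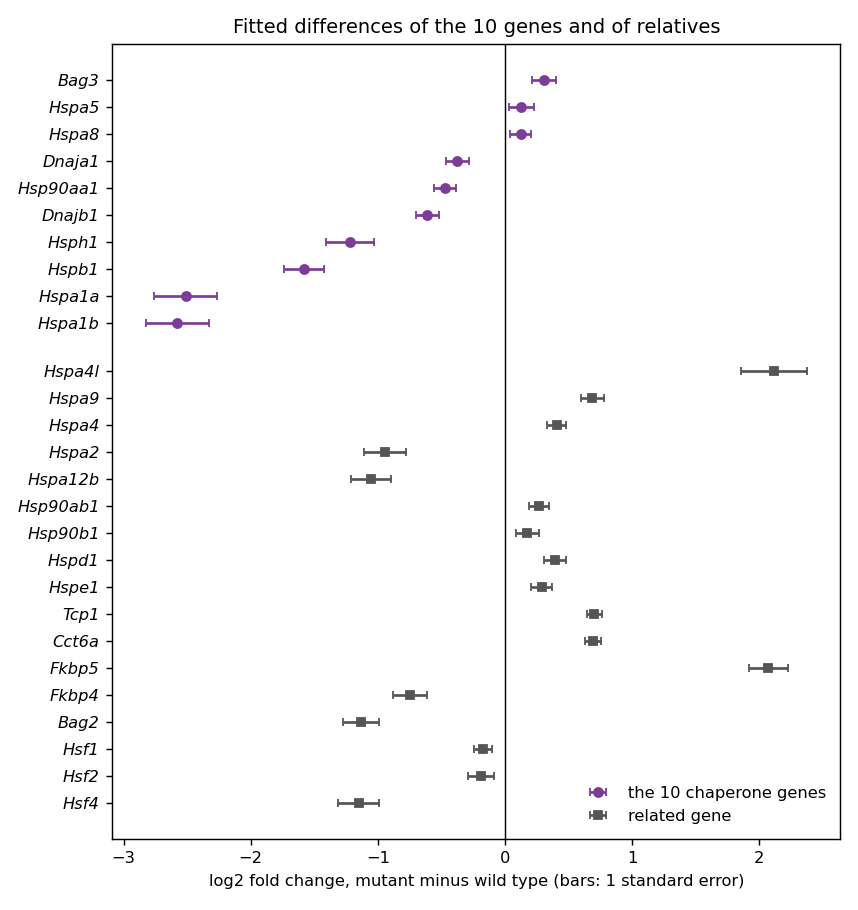
Fitted log2 fold change (mutant minus wild type, 4 libraries each) with bars of 1 standard error for the 10 chaperone genes (purple circles) and 17 related genes (grey squares). Of the 10 genes, 7 lie left of 0, down to -2.58, and Bag3, Hspa5 and Hspa8 right of it. Among the relatives Hspa4l, Fkbp5, Hspa9 and the chaperonin subunits Tcp1 and Cct6a lie right of 0.

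Chaperonins are the ring-shaped folding chambers, TRiC in the cytosol, which folds actin and tubulin, and HSP60 in mitochondria. Each of the 10 chaperonin genes tested was higher in mutant ECs, and their median was 0.57 on the log2 scale. *Tcp1* rose from 3804 ± 69.6 (SD, n = 4) to 6192 ± 273 (SD, n = 4) normalized counts (log2 fold change 0.70, adjusted p = 1.88e-05, edgeR) and *Cct6a* from 2606 ± 79.1 (SD, n = 4) to 4217 ± 240 (SD, n = 4) (log2 fold change 0.69, adjusted p = 2.65e-05, edgeR). The mitochondrial chaperonin genes *Hspd1* (log2 fold change 0.39, adjusted p = 0.00357, edgeR) and *Hspe1* (0.29, adjusted p = 0.0165, edgeR) also rose. Of 10 mitochondrial chaperones and proteases, which include *Hspa9*, *Hspd1* and *Hspe1*, 5 rose and none fell (median 0.21). *Grpel1*, the nucleotide exchange factor of *Hspa9*, rose 1.46-fold (log2 fold change 0.55, adjusted p = 0.00158, edgeR).

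Of 24 co-chaperones of HSP70 and HSP90, 10 rose and 3 fell (median 0.09). *Fkbp5*, an HSP90 partner of steroid receptors, rose from 419 ± 63.0 (SD, n = 4) to 1760 ± 319 (SD, n = 4) normalized counts (log2 fold change 2.07, standard error 0.15, adjusted p = 7.09e-06, edgeR), while its paralogue *Fkbp4* fell from 3504 ± 601 (SD, n = 4) to 2085 ± 277 (SD, n = 4) (log2 fold change -0.75, adjusted p = 0.00122, edgeR). *Bag2*, which like *Bag3* acts on HSP70, fell 2.20-fold (log2 fold change -1.13, adjusted p = 0.000157, edgeR). Of 38 J-domain genes other than *Dnajb1* and *Dnaja1*, 9 rose, 10 fell and 19 were not called (median -0.08). *Dnaja4*, a heat-inducible paralogue of *Dnaja1*, fell 1.77-fold (log2 fold change -0.82, adjusted p = 0.000311, edgeR) and *Dnajc12* 2.12-fold (-1.07, adjusted p = 0.00163, edgeR). *Dnajc25* (log2 fold change 0.70, adjusted p = 0.0013, edgeR) and *Dnajc2*, which acts at the ribosome (0.65, adjusted p = 0.00015, edgeR), rose. Of 7 small heat shock protein genes other than *Hspb1*, 1 rose, none fell and 6 were not called (median 0.09).

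The ER stress response, of which *Hspa5* is the usual readout, was mixed. Of 25 genes 13 rose, 4 fell and 8 were not called, with a median of 0.31, and 16 were called higher with the label prefix as a block. *Trib3*, a target of ATF4 and CHOP, rose from 74.3 ± 3.12 (SD, n = 4) to 162 ± 58.1 (SD, n = 4) normalized counts (log2 fold change 1.13, adjusted p = 0.00375, edgeR), and *Sdf2l1*, an ER partner of BiP, rose 1.78-fold (log2 fold change 0.83, adjusted p = 0.0136, edgeR). *Ddit3*, which encodes CHOP, fell 1.54-fold (log2 fold change -0.62, adjusted p = 0.000341, edgeR) and *Dnajb9*, a J-domain partner of BiP, fell 1.49-fold (-0.57, adjusted p = 0.000639, edgeR).

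**Figure D5:**
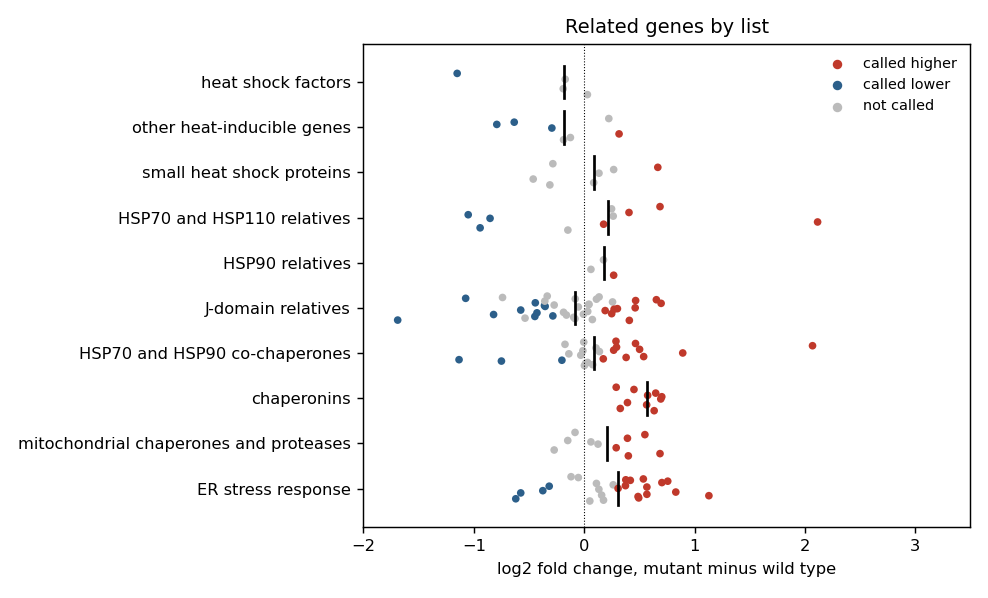
Log2 fold change (mutant minus wild type) of each related gene tested, by list, in red where called higher, blue where called lower and grey where not called, with a black bar at the list's median. All 10 chaperonins are red. The other heat-inducible genes hold 3 blue points and 1 red, and the heat shock factors 1 blue and 0 red. The 38 J-domain genes hold 10 blue and 9 red, near the shares over all genes tested (22.9% lower, 21.5% higher).

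Other RNA that moved with the chaperone genes was measured beside them, with lists likewise chosen when earlier results of these data were known. Of 15 immediate early genes known to be induced by dissociation, 10 were lower in mutant ECs and none higher (median log2 fold change -0.63), and 13 were called lower with the label prefix or the replicate number as a block. *Nr4a1* fell 2.52-fold (log2 fold change -1.33, adjusted p = 0.000237, edgeR) and *Fos* 2.37-fold (-1.24, adjusted p = 0.000239, edgeR), both of which are also ERK targets. Their summed level was 7090 to 11500 CPM in mutant and 13500 to 17300 in wild-type libraries, with no overlap. All 4 oligodendrocyte markers were lower in mutant libraries (24.3 to 52.6 CPM in mutant, 79.0 to 241 in wild-type libraries). So were all 3 red blood cell markers (76.0 to 250 and 464 to 805 CPM). Lower too were 3 of 5 neuronal markers (11.5 to 15.8 and 8.23 to 42.1 CPM) and 1 of 4 astrocyte markers (10.3 to 30.8 and 14.2 to 27.4 CPM). The 2 neuronal markers not called had log2 fold changes of 1.185 (adjusted p = 0.0514, edgeR) and -1.704 (adjusted p = 0.0845, edgeR). Of 5 pericyte markers 2 were higher (605 to 952 and 561 to 988 CPM), of 4 smooth muscle markers 1 was higher (66.1 to 184 and 86.3 to 211 CPM), of 4 fibroblast markers 2 were higher and 1 lower (520 to 659 and 399 to 574 CPM), and none of 5 microglial markers was called (77.7 to 330 and 86.6 to 390 CPM). The 11 endothelial markers summed to 12600 to 15300 CPM in mutant and 11900 to 14300 in wild-type libraries, with 3 higher and 3 lower, and none of the tested markers was at 0 in any library. The part of dissociation and of these other cell types in the chaperone differences was not tested.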

How the data were processed

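ECs of 4 mutant and 4 wild-type pups gave 1 library each. The authors deposited raw counts per gene, made after Trimmomatic trimming and STAR alignment to GRCm38. The counting program, the annotation, the strand setting and how multi-mapping reads were handled are not given in the sources used here, which matters for near-identical genes. A deposited table of DESeq2-normalized values was not used. Of 49315 gene identifiers, 48970 matched a symbol in GENCODE vM21.

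Counts were analysed in R 4.3.3. Genes were filtered with filterByExpr (minimum count 10), libraries were scaled by TMM, and the groups were compared with glmQLFit and glmQLFTest of edgeR 4.0.16, with p adjusted over 16887 genes by the Benjamini-Hochberg method. DESeq2 1.42.0, used by the authors, was an alternative, as were other normalizations and filters, blocks for the replicate number or the label prefix, and each library left out in turn. The script was tested on simulated data. Same-group libraries differed by more than sampling noise (chi-square per degree of freedom 6.7 to 37.1 over 12 pairs), so none looked like a library deposited again. This does not tell the spread between pups from that of preparation. Litters were matched between the groups, but which library came from which litter is not given. The main fit, and each adjusted p printed from it, leaves this matching out.

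The 10 genes and all lists were chosen with earlier results of these data known. Named besides the 10 are *Map2k1*, 8 chaperone and heat shock factor genes, and up to 2 higher and 2 lower genes per list with an adjusted p under 0.05, a mean of at least 100 normalized counts and the largest fold changes. A gene that this rule names is not reported here. The 5 genes most like the 10 are named by their correlation. *Smu1* and the pseudogenes are named for overlap or shared sequence. Transcript windows of 150 bases were compared between all transcripts of GENCODE vM21. Log2 CPM used a prior count of 2.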

Additional observations from a re-analysis of the deposited data

Results flagged for a closer look

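In 9 of 96 groups of 4 libraries, 1 library stood apart from the other 3 by Dixon's test, of which chance gives about 1 in 20. None of the 9 concerned the 10 chaperone genes. *Hsp90ab1* had 83052 normalized counts in wild-type library 3, against 91302 to 92120 in the other wild-type libraries. In wild-type library 4, *Hspa4* had 9406 (others 8188 to 8392), *Zfand2a* 15130 (others 10174 to 10856) and *Dnajc12* 207 (others 143 to 145). Mutant library 3 had 1345 normalized counts of *Hspa2* (others 780 to 839), 1285 of *Fkbp5* (others 1856 to 1960) and 777 of *Ddit3* (others 636 to 647). Mutant library 2 had 102 normalized counts of *Txnl4b* (others 149 to 156) and 841 of *Pmm2* (others 896 to 908).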

How the results depend on the processing

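The 7 chaperone genes lower in mutant ECs stayed lower in all 16 alternatives, with log2 fold changes between -2.77 and -2.42 for *Hspa1b* and between -0.44 and -0.32 for *Dnaja1*. Leaving out a library is no separate check of their direction, since the groups were already apart for these genes. The log2 fold change changed sign for none of the 10 genes or of the 33 other genes followed over these settings. Genes named for their correlation, overlap or shared sequence were not followed. The median over all genes tested, -0.03, was -0.087 with upper-quartile scaling, -0.079 with total counts only, 0.006 with no filter and 0.003 without mutant library 1. *Bag3* was the 1 gene called higher of the 10, and 0 were called higher with upper-quartile scaling or without wild-type library 1 or 2 (range 0 to 1 over libraries left out). A mean of at least 100 normalized counts cut the genes called with the fold limit from 2356 to 1195. Heat shock factors called lower numbered 2 in place of 1 with the label prefix block, that filter, total counts only and upper-quartile scaling, and mitochondrial chaperones called lower numbered 1 in place of 0 in the same settings. HSP90 relatives called higher numbered 2 with the prefix block and 0 with no filter, small heat shock proteins called higher 0 with the filter at 100, and heat-inducible genes called higher 0 with upper-quartile scaling. Over libraries left out, these counts ran from 0 to 1 for mitochondrial chaperones called lower (1 without mutant library 4), 0 to 1 for heat-inducible genes called higher, and 0 to 1 for small heat shock proteins called higher (0 without mutant library 2 or wild-type library 2) and lower (1 without wild-type library 4). Fewer genes are tested with the filter at 100, and the cause of the other changes was not tested.

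The replicate numbers were not taken to pair the libraries, since the labels name no litter for them and the deviations of same-numbered libraries correlated at 0.201, 0.21, 0.29 and 0.024, and 2 of 4 mutant libraries correlated best with their own number. With the replicate block 8162 genes were called in place of 7504, of which 2431 passed the fold limit, and 7 of the 10 chaperone genes were lower and 1 was higher. The label prefix block gave 8610 genes. Of all genes called, 48.4% were higher, against 40.7% with upper-quartile scaling, 41.8% with total counts only, 50.8% with DESeq2 or RLE scaling, and 49.1% to 52.7% over libraries left out, so that which direction had more calls depended on the setting. DESeq2 called 7763 of 22589 genes.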
